A study of Mus musculus with 2 samples.

Results

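Gene activity of the genes for cilium transport and for dynein motors was examined in C2C12 myoblasts. The members are all entries of the gene activity table whose symbol begins with Ift, Bbs, Dnah or Dnai and a digit, or with Dync1 or Dync2, which gave 44 RefSeq entries of 41 genes among 24165 entries of 20128 genes. No entry carried a Dnai symbol of this form. C2C12 cells are mouse myoblasts of an established line, proliferating precursors that can fuse into muscle fibres. The study made 2 replicate GRO-seq libraries from untreated cells at 80% confluency, with no other genotype, treatment or time point. GRO-seq extends the RNA held by engaged polymerases of isolated nuclei with bromouridine and sequences the RNA that took up this label. Gene activity is the read density on the sense strand of the gene body, which begins 1 kb past the transcription start site (TSS) and ends with the transcript. It is given in RPKmM, which is scaled to mappable length and to the number of reads, and can therefore be compared between genes of different length. Both libraries were pooled by the authors, so every value below is 1 number without a spread between replicates, and no difference between genes could be tested. The reads behind each value are unknown from the table, and values are rounded to 2 decimals.

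A primary cilium is a single non-motile antenna that most mammalian cells can assemble when they leave the cell cycle. Its proteins are carried along the axoneme by trains of intraflagellar transport (IFT) proteins, which kinesin-2 moves to the tip and cytoplasmic dynein-2 moves back, while the BBSome, an octamer named after Bardet-Biedl syndrome, carries membrane cargo on these trains. Cytoplasmic dynein-1 is a different motor, which moves organelles, RNA and chromosomes along microtubules in the cell body of nearly every animal cell. Axonemal dyneins drive the beat of motile cilia and sperm tails, which myoblasts are not known to build. The members were divided accordingly into a primary cilium class (Ift, Bbs and Dync2 genes), a cytoplasmic dynein-1 class (Dync1 genes) and an axonemal class (Dnah genes).

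Every primary cilium and dynein-1 entry was active, whereas most axonemal entries were not. All 26 primary cilium entries of 24 genes and all 6 dynein-1 entries of 5 genes passed the authors' comparison with gene deserts, against 2 of 12 axonemal entries (16.7%). Of all entries listed, 70.2% were active. The median activity of active entries was 0.745 RPKmM in the primary cilium class (quartiles 0.4 and 1.14), 3.41 in the dynein-1 class (1.86 and 4.18) and 0.01 in the axonemal class. The median of all 16957 active entries was 0.87, so the primary cilium class lay slightly below it and the dynein-1 class at 3.92 times that value. The dynein-1 median was 4.58 times the primary cilium median. The classes overlapped only in part, as 21 of 26 primary cilium entries lay below the lowest dynein-1 entry and 1 lay above the highest. Of all active entries, 59.1% also lay below that lowest entry, Dync1i1 at 1.19. The 2 axonemal entries with a value, both at 0.01, lay below the lowest primary cilium entry, and the other 10 carry no value to compare.

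**Figure D1:**
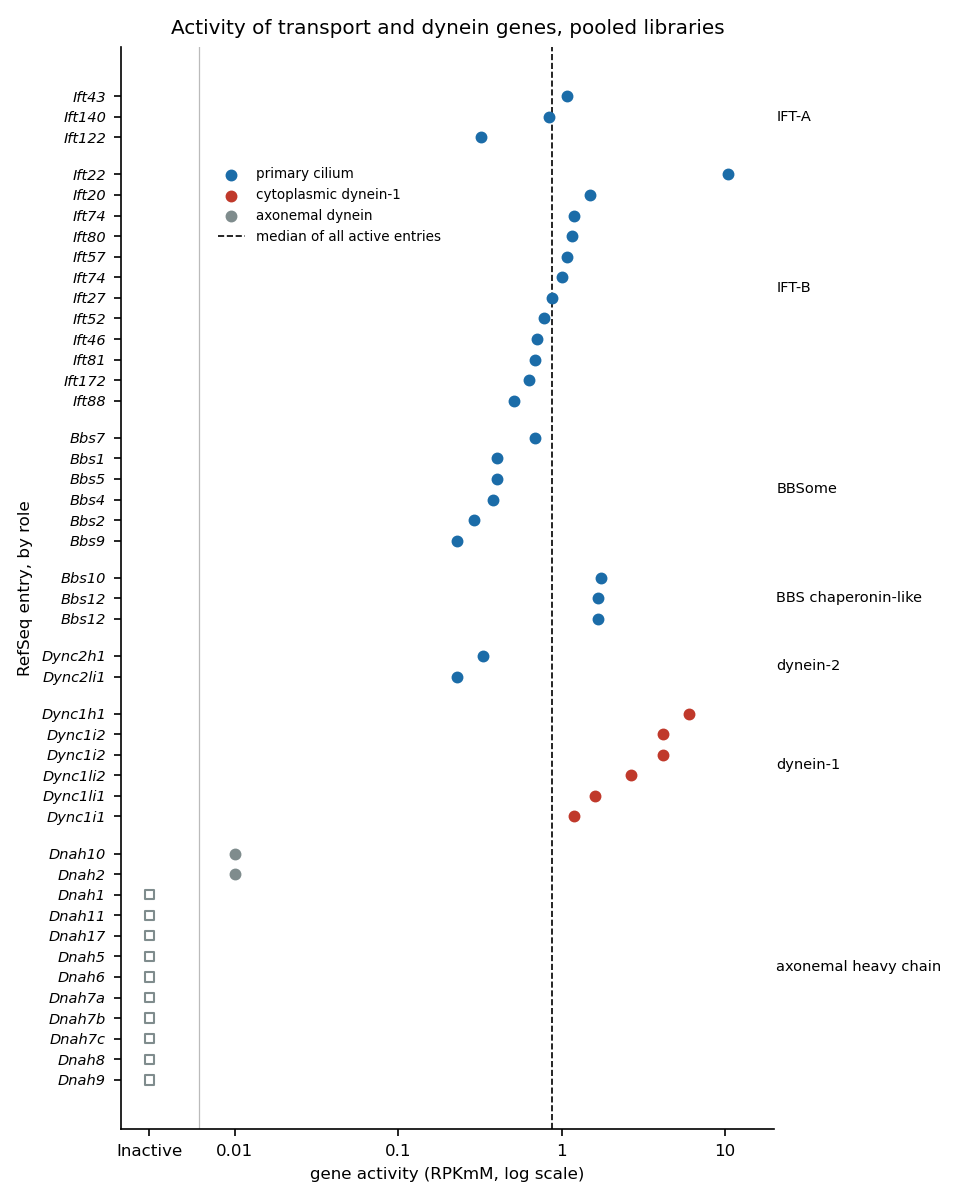
Gene activity in RPKmM (log scale) of the 44 RefSeq entries, each a filled circle, grouped by role and coloured by class; open squares at the left are entries listed as Inactive. The dashed line is the median of all active entries (0.87), with dynein-1 to its right, the BBSome and dynein-2 to its left and 10 of 12 axonemal entries in the inactive lane.

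An activity of at least 1 RPKmM was listed for 10 of 26 primary cilium entries (38.5%), for 6 of 6 dynein-1 entries and for 0 of 12 axonemal entries, where 32.3% of all entries reached that level. The primary cilium share is thus near that of the whole table. Entries of the same gene share most of their reads and are not independent. Both Bbs12 entries were listed at 1.66 and both Dync1i2 entries at 4.18, and the Ift74 entries differed by a ratio of 1.17.

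Cytoplasmic dynein-1 consists of a heavy chain that holds the motor, with intermediate and light intermediate chains that bind cargo adaptors. Its heavy chain gene Dync1h1, on the plus strand of chromosome 12 from 111839662 to 111905155 (mm9), had the highest activity of the class at 5.97 RPKmM, above 94.1% of all active entries. The intermediate chain gene Dync1i2, the widely used form, had 4.18, and Dync1i1, best known from neurons, had 1.19. Their activities thus differed by a ratio of 3.51. Of the light intermediate chains, Dync1li2 had 2.64 and Dync1li1 had 1.6. Every gene named Dync1 was above the median of all active entries, which 49.7% of active entries exceeded. This does not extend to the light chains that dyneins share. Of their 11 entries 7 were above that median, and Dynlrb1, at 0.71, was not.

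Dynein-2 was at the low end of the primary cilium class. Its heavy chain gene Dync2h1 (mm9 chromosome 9, 6928503 to 7184446, minus strand) had 0.33 RPKmM, and its light intermediate chain gene Dync2li1 had 0.23. The heavy chain of dynein-1 was therefore 18.1 times as active as that of dynein-2. Between light intermediate chains the ratio was 11.5 for Dync1li2 and 6.96 for Dync1li1 over Dync2li1. The dynein-2 intermediate chain genes were named Wdr34 and Wdr60 in this annotation and so fall outside the symbol patterns. They had 0.51 and 1.17, both above the heavy chain gene Dync2h1 and the light intermediate chain gene Dync2li1.

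The IFT genes, 15 entries of 14 genes, had a median activity of 0.87 RPKmM, and a single gene stood far above the others. Ift22, a Rab-like small GTPase of the IFT-B complex also named Rabl5, was listed at 10.43, above 97.2% of all active entries and highest of all members. It is a gene of 5.09 kb on the plus strand of chromosome 5 from 137384020 to 137389114. The next highest IFT gene was Ift20, a subunit that also works at the Golgi apparatus, at 1.49, so the ratio between both was 7. No protein-coding gene on the same strand ended within 10 kb upstream of Ift22.

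IFT-B forms the body of the anterograde train. Besides Ift22 and Ift20, its members Ift74 (1.18 and 1.01) and Ift81 (0.69) form the pair that binds tubulin cargo, and Ift80 had 1.16. Ift57 was listed at 1.08, Ift27, another Rab-like GTPase, at 0.87, and Ift52 at 0.78. Ift46 was at 0.71, Ift172 at 0.63 and Ift88 at 0.51. Ift88 is the gene disrupted in the Oak Ridge polycystic kidney mouse. Without Ift22 these genes thus spanned from 0.51 to 1.49. IFT-A, which is needed for retrograde transport and for entry of membrane proteins, was represented by Ift43 at 1.08, Ift140 at 0.83 and Ift122 at 0.32. Ift122 was the lowest of the genes named Ift, and the ratio of Ift22 to it was 32.6.

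Further IFT subunits bear other names. Of IFT-A, Ttc21b had 0.47, Wdr19 had 0.34 and Wdr35 had 1.34, so all 6 IFT-A subunits were active with a median of 0.65. Of IFT-B, 7 such genes were in the table and 7 were active, from 0.1 for Ttc30a2 to 2.02 for Ttc30b, with a median of 0.99. These lists are small, and 70.2% of all entries were active. Ttc30a1, Ttc30a2 and Ttc30b are close copies, and only uniquely mapped reads were counted, so the values of single copies are uncertain.

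The Bbs genes separated by role. The 6 BBSome subunits had a median of 0.39 RPKmM, with Bbs7 at 0.69, Bbs1 and Bbs5 at 0.4 each, Bbs4 at 0.38, Bbs2 at 0.29 and Bbs9 at 0.23. All were below the median of all active entries. Bbs10 and Bbs12 are not BBSome subunits but chaperonin-like proteins that assist its assembly, and they were listed at 1.74 and 1.66. These groups of 6 and 2 genes did not overlap. Bbs10, the highest, was 7.57 times as active as Bbs9, the lowest. They lay above 70.9% and 25.2% of all active entries. The third chaperonin-like gene, Mkks, had 1.11 in both of its entries and also lay above all 6 subunits. The remaining BBSome subunits, Ttc8 and Bbip1, had 0.83 and 2.01, so the separation held for subunits named Bbs and not for the whole complex.

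The position of these genes bears on how far single values can be read. Bbs10 is only 3.06 kb long, on the plus strand of chromosome 10 from 110735735 to 110738792, and Osbpl8 on the same strand ends 1432 bp upstream of it with an activity of 1.72. Bbs12 is 8.9 kb long and overlaps the annotated span of Fgf2 on the same strand, which was listed at 0.2. Among the lower members, Dpp3 ends 602 bp upstream of Bbs1 with 1.61, Fndc4 ends 1141 bp upstream of Ift172 with 0.76, and Plekhh2 ends 4354 bp upstream of Dync2li1 with 0.96. Each of these neighbours is transcribed in the direction of the member. The part of such neighbours in the activity of the members was not tested.

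**Figure D2:**
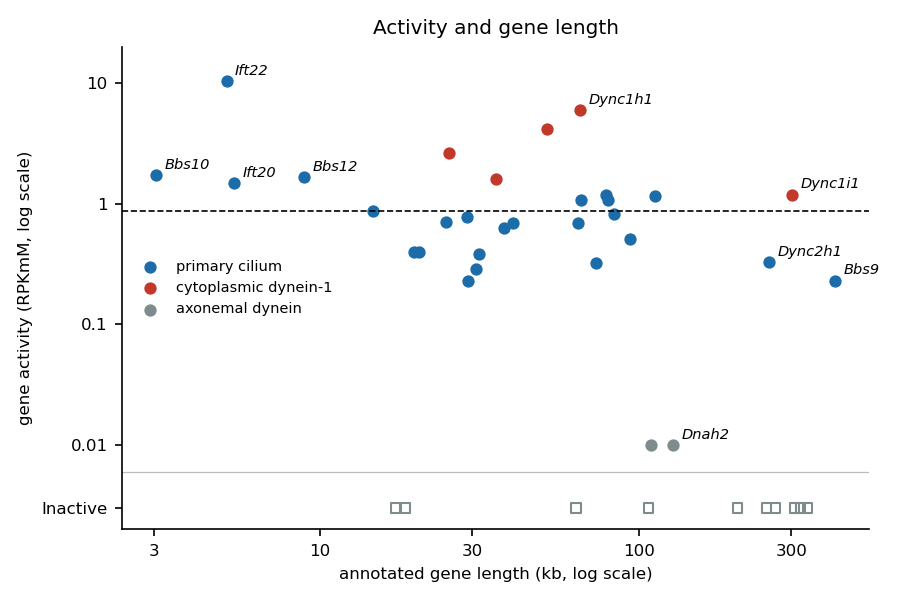
Gene activity in RPKmM against annotated gene length in kb (both log scales) for the 41 member genes, with the highest entry of each gene; open squares are inactive genes and the dashed line is the median of all active entries. Ift22, Ift20, Bbs10 and Bbs12 are the shortest members and lie above 1, while 10 of 12 axonemal genes are inactive and Dnah2 and Dnah10 are at 0.01.

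The 4 shortest primary cilium genes, Bbs10, Ift22, Ift20 and Bbs12, were also the 4 most active ones. Over the 24 primary cilium genes Spearman's rank correlation of activity with annotated length was −0.382, and −0.298 without Ift22. Over all 13250 active genes with an annotated length it was −0.027. These are correlations across genes, which share libraries and overlapping neighbours and are not replicates, so they are given as a description.

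The axonemal class contains heavy chains of the outer and inner arms. Of its 12 genes, Dnah1, Dnah5, Dnah6, Dnah7a, Dnah7b, Dnah7c, Dnah8, Dnah9, Dnah11 and Dnah17 were listed as Inactive. Dnah5 and Dnah11, whose loss causes primary ciliary dyskinesia or reversed organ situs in mice, were among them. Dnah2 and Dnah10 were active but listed at 0.01 RPKmM each, the lowest value above 0 that the rounding allows, and only 0.908% of active entries were lower. The primary cilium median was 74.5 times that value, a ratio that depends on the rounding. Dnah7a, Dnah7b and Dnah7c are closely related copies on chromosome 1, and the annotation used here holds only models of 18.5 kb and 17.2 kb for Dnah7a and Dnah7c.

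Axonemal genes were long, with a median of 166 kb against 34.7 kb in the primary cilium class. Because the activity call rests on read numbers, a given density is easier to call in a long gene. Of 9 axonemal genes annotated at 100 kb or more, 2 were active, whereas 74.6% of all entries of that length were. Both active axonemal genes lie downstream of an active gene on the same strand. Atp6v0a2 ends 631 bp upstream of Dnah10 with an activity of 0.9, and Efnb3 ends 4982 bp upstream of Dnah2 with 0.43. Of the other 10, Dnah17 has such a neighbour, as Cyth1 (0.9 and 1.06) ends 2800 bp upstream, and it was inactive. None of the 9 axonemal genes without an upstream neighbour on the same strand within 10 kb was active. These counts are small and have no share over all genes beside them. The 10 kb window was set after the table had been examined. For Dnah7a and Dnah7c the neighbours were sought at the starts of the short models, which may not be the starts of the full genes. The part of these neighbours in the 2 activity calls was not tested.

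The other genes of motile cilia are read against the 70.2% of all entries that were active. Of the axonemal intermediate and light chains, 7 of 7 entries were active, but 4 of them (Dnaic1, Dnaic2, Dnali1 and Wdr63) were at 0.01, and Dnal1 (0.92) and Dnal4 (0.85) were the highest. Of 26 entries for radial spoke, central pair, ruler and tektin proteins 11 were active (42.3%), with a median of 0.06. Hydin and Spag17 of the central pair, Ccdc40 of the ruler and Tekt1 were listed as Inactive, while Gas8 of the dynein regulatory complex had 0.98. Of 11 entries for dynein assembly and docking factors 7 were active (63.6%), a share close to that of all entries, with a median of 0.3. The cytoplasmic assembly factor Dnaaf2 was highest at 2.05, and Dnaaf1, Ccdc151, Armc4 and Lrrc6 were inactive.

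Among genes that work with the primary cilium and dynein-1 classes, active entries are again set against 70.2% of all entries. All 27 entries of 22 transition zone genes, which form the gate at the ciliary base, were active with a median of 0.41, from 0.07 for Nphp4 to 1.89 for Cep290. Of kinesin-2, Kif3a had 1.97, Kif3b 0.96 and Kifap3 0.86, whereas the accessory motor Kif17 was inactive. Dynactin and the dynein-1 regulators were active in 18 of 18 entries, with a median of 2.045, and 14 of these were at 1 or above, where 32.3% of all entries were. Pafah1b1, which encodes the dynein regulator LIS1, reached 11.59, and the dynactin subunit Dctn2 reached 7.12.

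**Figure D3:**
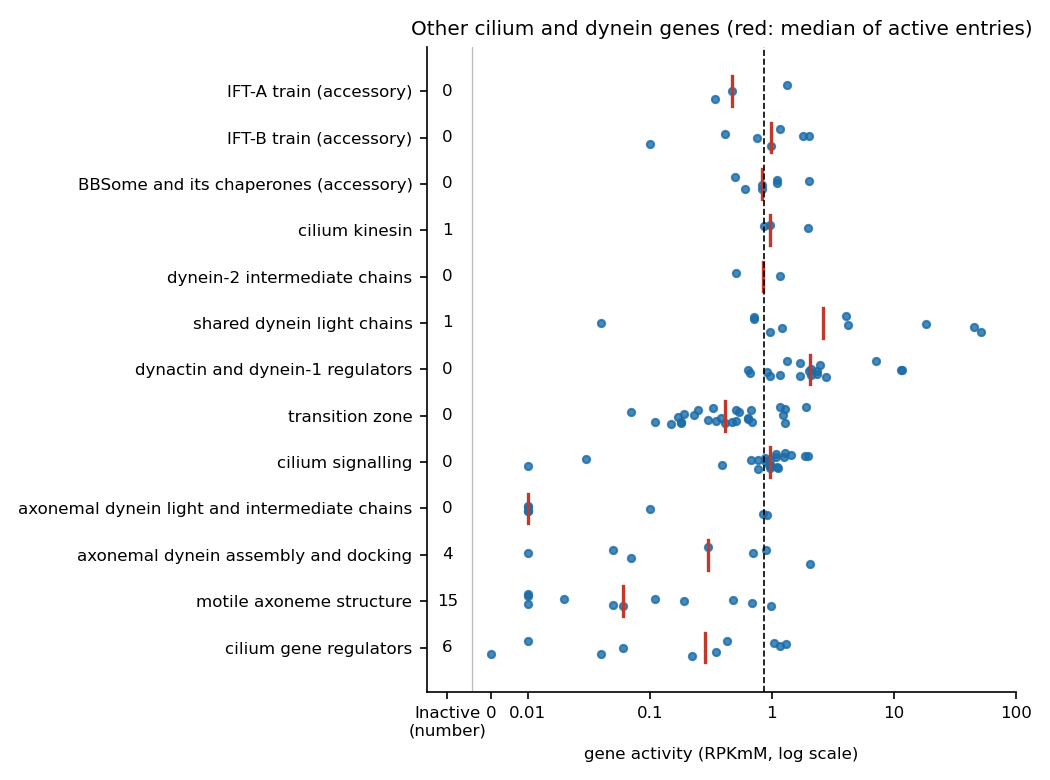
Gene activity in RPKmM (log scale) of entries in 13 lists of other cilium and dynein genes; each point is an entry, red bars are medians of active entries, the dashed line is the median of all active entries, and the numbers at the left count inactive entries. Dynactin and regulators centre at 2.045 and the transition zone at 0.41, while 15 of 26 entries for motile axoneme structure are inactive.

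The cell type was checked against marker genes. All 6 myoblast markers were active, where 70.2% of all entries were, from 2.39 for Myod1, a determination factor of the muscle lineage, to 146.13 for Vim, which mesenchymal cells in general express. Of 8 entries for markers of multiciliated cells, 2 were active, Ccno at 0.05 and Rsph1 at 0.01, and the master regulators Foxj1 and Mcidas were inactive. Of 4 entries for spermatogenic markers, Sycp3 was active at 0.02 and the remainder inactive.

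Some primary cilium genes had the start of another gene nearby. Of 24 primary cilium genes, 7 (29.2%) had an annotated protein-coding TSS on the opposite strand within 1 kb, against 10.8% of 22380 protein-coding genes in mm9. None of the 5 dynein-1 or 12 axonemal genes had one, with the same limit for Dnah7a and Dnah7c. The 22380 genes include inactive ones, whereas all 24 primary cilium genes were active. The opposite gene was the more active in 6 of 7 pairs, a count without the share over all such pairs beside it. Smc4, a condensin subunit, had 11.19 against 1.16 for Ift80, with 168 bp between the start sites. Dcun1d5 had 4.41 against 0.33 for Dync2h1, and Mbd4, a DNA glycosylase, had 1.91 against 0.32 for Ift122. The exception was Bbs12, at 1.66 against 0.02 for the centrin gene Cetn4. Reads were assigned by strand, so both genes of a pair were measured separately.

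**Figure D4:**
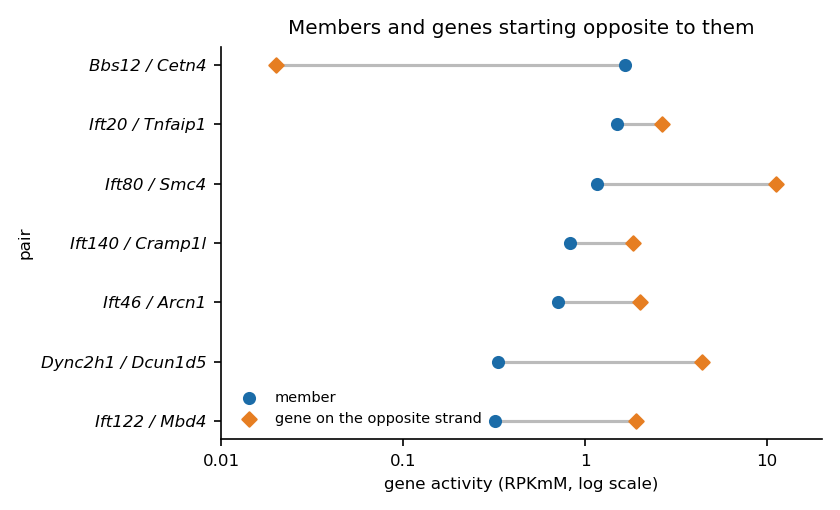
Gene activity in RPKmM (log scale) of the 7 primary cilium genes with an annotated start on the opposite strand within 1 kb (circles) and of the gene that starts there (diamonds), joined by a line. The opposite gene is to the right of the member in each pair other than Bbs12 and Cetn4.

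Promoter sequences were taken from RefSeq (GRCm38.p6, 250 bases before to 50 after the TSS) for 36 of 41 member genes. Dync1li2, Dync2li1, Ift122, Ift80 and Ift81 had no entry in the promoter set used, although each has a RefSeq transcript. CpG content was expressed as the observed over expected ratio, where values above 0.6 are typical of CpG islands. The ratio was above 0.6 for 18 of 20 primary cilium promoters (90.0%), with a median of 0.758, and for 2 of 12 axonemal promoters (16.7%), with a median of 0.475. Of all promoters of active genes 65.1% exceeded 0.6, and of inactive genes 19%, with medians of 0.732 and 0.271. Of 5 dynein-1 promoters, 3 exceeded 0.6, and the alternative upstream promoter of Dync1i2 (0.32) and that of Dync1i1 (0.37) did not. The promoter of Dync1h1 (chr12:110601145-110601444, plus strand) and that of the inactive Dnah5 (chr15:28203516-28203815, plus strand) are shown as a CpG-rich and a CpG-poor example. Each CpG is in capitals, 30 in the former and 6 in the latter. They do not stand for their classes. The ratio of Dync1h1, 1.03, was the highest of the dynein-1 promoters, and axonemal promoters held from 4 CpG (Dnah17) to 16 (Dnah8).
Dync1h1: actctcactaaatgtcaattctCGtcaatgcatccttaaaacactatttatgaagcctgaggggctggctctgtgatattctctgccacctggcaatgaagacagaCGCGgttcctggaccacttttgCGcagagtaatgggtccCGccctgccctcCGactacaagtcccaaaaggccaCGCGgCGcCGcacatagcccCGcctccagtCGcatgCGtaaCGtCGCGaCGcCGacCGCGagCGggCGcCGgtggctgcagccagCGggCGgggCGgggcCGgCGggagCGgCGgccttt
Dnah5: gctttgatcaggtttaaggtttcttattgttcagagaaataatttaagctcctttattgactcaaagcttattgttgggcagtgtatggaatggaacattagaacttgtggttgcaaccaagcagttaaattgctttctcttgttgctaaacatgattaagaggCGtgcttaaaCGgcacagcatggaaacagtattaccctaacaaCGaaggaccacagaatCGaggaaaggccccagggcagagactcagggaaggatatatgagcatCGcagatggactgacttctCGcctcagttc

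RFX factors, which regulate many ciliary genes, bind a motif known as the X-box. An X-box-like match was defined as GTNNCC, then 0 to 3 bases, then NGNAAC, on either strand. Such a match was found in 6 of 20 primary cilium promoters (30%), in 0 of 5 dynein-1 promoters and in 2 of 12 axonemal promoters (16.7%). Of all 32851 promoters 5.25% held one, and the share was 5.89% for active and 5.65% for inactive genes. The primary cilium genes with a match were Bbs1, Bbs4, Bbs7, Ift22, Ift57 and Ift74, and the axonemal genes were Dnah9 and Dnah17, both inactive. The gene of highest activity among the members, Ift22, had 2 matches, starting 63 and 33 bases upstream of the TSS. The match of Bbs7, GTTGCCTTGGAAAC, starts 121 bases upstream, and a match of Ift57, GTTGCCTGGTAAC, starts 60 bases upstream. Both fit the definition on either strand. The activities of genes with a match, from 0.38 for Bbs4 to 10.43 for Ift22, spanned most of the range of the class. A match is a description of the sequence and not evidence of binding. The promoters with more than 1 match, counting both strands, are shown with the matches in capitals, for Bbs7 (chr3:36613340-36613639, minus strand), Ift57 (chr16:49699044-49699343, plus strand) and Ift22 (chr5:136907900-136908199, plus strand).
Bbs7: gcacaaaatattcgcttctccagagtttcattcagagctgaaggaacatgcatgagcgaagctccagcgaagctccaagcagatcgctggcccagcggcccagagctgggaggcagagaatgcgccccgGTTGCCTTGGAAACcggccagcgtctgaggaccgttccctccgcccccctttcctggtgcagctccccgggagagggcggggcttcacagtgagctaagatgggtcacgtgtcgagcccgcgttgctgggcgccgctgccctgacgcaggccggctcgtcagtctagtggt
Ift57: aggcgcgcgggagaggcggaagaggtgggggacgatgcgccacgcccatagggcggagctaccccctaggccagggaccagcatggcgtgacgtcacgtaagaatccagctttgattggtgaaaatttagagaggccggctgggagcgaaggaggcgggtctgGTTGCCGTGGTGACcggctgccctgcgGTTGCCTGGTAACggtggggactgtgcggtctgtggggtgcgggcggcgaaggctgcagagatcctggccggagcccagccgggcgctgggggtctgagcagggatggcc
Ift22: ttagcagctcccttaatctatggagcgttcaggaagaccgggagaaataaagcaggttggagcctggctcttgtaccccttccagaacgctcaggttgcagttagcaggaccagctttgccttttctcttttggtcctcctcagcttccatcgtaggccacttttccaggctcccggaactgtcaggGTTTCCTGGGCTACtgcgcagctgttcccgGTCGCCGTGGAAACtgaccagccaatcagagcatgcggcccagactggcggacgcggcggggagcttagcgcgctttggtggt

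**Figure D5:**
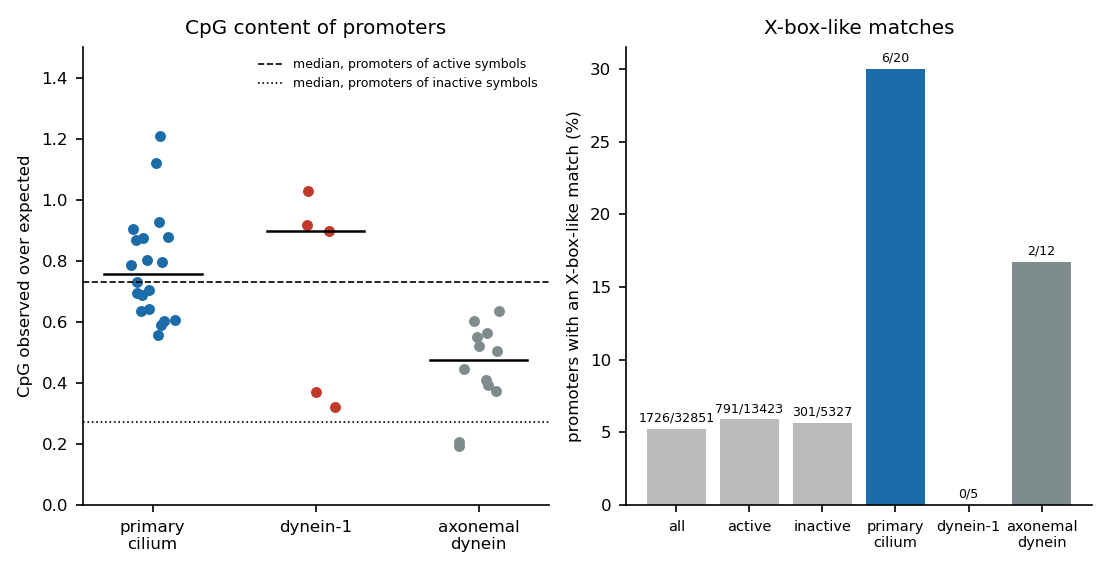
Left, CpG observed over expected ratio of member promoters by class (points, with class medians as bars) and the medians for promoters of all active and all inactive genes (lines); right, percentage of promoters with an X-box-like match, with counts above the bars. Primary cilium promoters centre at 0.758 and axonemal promoters at 0.475, and 6 of 20 primary cilium promoters hold a match against 1726 of 32851 in all.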

How the data were processed

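The authors made 2 GRO-seq libraries from untreated C2C12 myoblasts. Per the labels, base calling used CASAVA 1.8 and mapping used Bowtie2 on mm9. Reads without a unique alignment were shortened and aligned again, and reads within rRNA or tRNA repeats were removed. The authors then pooled both libraries and deposited gene activity in RPKmM, an RPKM over mappable bases, for genes of at least 2 kb, or the word Inactive (7208 entries). Pooling hides the variation between libraries, and the depth of each is not in the table. 154 active entries are listed at 0, a value rounded down.

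Entries were selected by symbol and summarised by counts, medians and ratios with Python 3.11.15, numpy 2.4.6, pandas 2.3.3, scipy 1.17.1 and matplotlib 3.10.9. No p-value or interval was computed, as there are no values per replicate. The members, classes and lists were chosen with earlier results of these data known; every member was named, and other genes came from the lists. The lists are of function and hold no gene picked for its value. The windows of 10 kb and 1 kb for neighbours and the length of 100 kb were set after the table had been examined. Lengths and neighbours came from GENCODE vM1 on NCBIM37 (mm9), in which all 41 member genes and 18738 gene symbols of the table were found, directly or by synonym. Promoters came from RefSeq on GRCm38.p6. The calculations were tested on simulated data. Alternatives were a single entry per gene, leaving out Dync2 genes or genes with a same-strand overlap, activity thresholds of 0.01 and 0.1, inactive entries entered as 0, and geometric means with pseudocounts of 0.01 and 0.001. A value was taken as moved where it changed by more than 1.5 times.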

Additional observations from a re-analysis of the deposited data

How the results depend on the processing

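Of 50 values recomputed under the alternatives, 47 stayed within 1.5 times the reported value and no ratio changed direction. Many of them could not differ, as leaving out Dync2 genes changes neither the dynein-1 nor the axonemal class. The threshold of 0.01 likewise equals the lowest activity of any member. The count of 47 is therefore not a measure of robustness. The number of active primary cilium entries ranged from 22 to 26 and their median activity from 0.69 to 0.805 RPKmM, and the ratio of the dynein-1 to the primary cilium median ranged from 3.7 to 4.94. The values that moved all concern the axonemal class. With a threshold of 0.1 in place of the authors' call 0 axonemal entries were active, and with inactive entries entered as 0 the axonemal median was 0. The ratio of the primary cilium to the axonemal class was 38.5 for geometric means with a pseudocount of 0.01, against 74.5, as that pseudocount equals both axonemal activities. No paired analysis was possible because the libraries were pooled, and neither library could be left out for the same reason.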

Other observations

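The cilium signalling list holds genes of cilium assembly and of the ciliary membrane beside those of Hedgehog signalling, which in mammals runs through the primary cilium. All 21 of its entries were active, where 70.2% of all entries were. Of the Hedgehog genes, the receptor gene Ptch1 had 0.96 RPKmM, the transducer Smo 1.99 and the inhibitor Sufu 0.68. Among the Gli transcription factors, Gli3, which acts mainly as a repressor, had 1.88, whereas Gli2 had 0.01 and Gli1, a transcriptional target of the pathway, had 0.03. The small GTPase Arl13b, a marker of the ciliary membrane, had 0.77.

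The RFX family was unequal. Rfx3 had 1.16 and 1.3 and Rfx7 had 1.05, and Rfx1, Rfx2 and Rfx5 had 0.43, 0.22 and 0.35. Rfx8 had 0.04, the entries of Rfx4 were listed at 0 and 0.01, and both Rfx6 entries were inactive. Of the light chains that dyneins share with other complexes, Dynll2 was listed at 51.98, 45.19 and 18.23 in its 3 entries, above 98.7% of active entries or more, while Dynll1 had 0.96, a ratio of 54.1 between the highest values. Dynlrb1 had 0.71 and its paralog Dynlrb2, known from motile cilia, was inactive.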
